A study of Mus musculus with 3 samples.

Results

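Growth factor receptors that act through Ras and the kinase ERK switch on genes whose products damp the same pathway. The Sprouty proteins (Spry1, Spry2 and Spry4) and their relatives Spred1 and Spred2 restrain signalling from the receptor to Ras and ERK, the phosphatases Dusp4 and Dusp6 remove the activating phosphates of MAP kinases, and Etv1, Etv4 and Etv5 are Ets transcription factors of the PEA3 group that FGF and ERK signalling induce. In oligodendrocyte progenitor cells (OPCs) the pathway is driven by PDGF-AA, the mitogen that keeps these cells dividing. Occupancy of these 10 genes by Nkx2.2, a homeodomain transcription factor of the oligodendrocyte lineage, was read from every region to which the authors assigned one of them. All 10 genes had at least 1 region and none was without one, which gave 29 of the 37271 regions in the deposited table. Of the 21900 protein-coding genes in the RefSeq table of assembly GRCm38.p6, 56.5% had an assigned region.

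The series compares 2 chromatin immunoprecipitation libraries, 1 for each cell state. OPCs came from dissociated cortices of C57BL/6 mice at postnatal day 7, were isolated using an anti-PDGFRA antibody, and were expanded in serum-free SATO medium containing PDGF-AA (10 ng/mL), NT-3 (1 ng/mL) and CNTF (10 ng/mL). Oligodendrocytes (OLs) were obtained from the same kind of cultured OPCs by withdrawing PDGF-AA and adding the thyroid hormone T3 (40 ng/mL) for 48 h. PDGF-AA is thus present for the OPCs and absent for the OLs. Its withdrawal cannot be told apart from T3 or the 48 h of differentiation. NT-3 and CNTF are listed for the OPCs only. Both libraries are labelled with 1.5e7 cells and a monoclonal Nkx2.2 antibody, the cells were isolated and cultured at the same time, and an input library was not analysed here. The identity of the cells was not checked against markers, since these values measure occupancy and not expression. Signal means each region's average value as the authors deposited it, sequencing depth is unknown, and there are no replicates, so no difference below has an error or a test. A change in the share of cells that are bound and a change in signal per cell cannot be told apart. Ratios are log2((OL + 1) / (OPC + 1)), where the added 1 pulls the ratio of a weak region toward 0. Coordinates are those of the deposited table, for which the submitters' processing notes name the build mm9, and it does not say whether starts are 0-based or 1-based.

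Regions covered the deposited gene start, meaning that the start lay inside the region, at Spry1, Spry4, Spred2, Dusp4 and Etv5. These are 5 of the 10 genes, against 39.7% of all genes with a region. The 250 bases before the RefSeq start (assembly GRCm38.p6) are shown for the 3 of these genes with an entry in the RefSeq promoter table, because their regions reach past 250 bases upstream of the deposited start. For Etv5 the outermost of its 2 listed starts was taken, and whether it is the start used in the deposited table was not determined. Capitals mark AAGTG, the core of the NK2 homeodomain element, on either strand.
Spry1, chr3:37639697-37639946, + strand: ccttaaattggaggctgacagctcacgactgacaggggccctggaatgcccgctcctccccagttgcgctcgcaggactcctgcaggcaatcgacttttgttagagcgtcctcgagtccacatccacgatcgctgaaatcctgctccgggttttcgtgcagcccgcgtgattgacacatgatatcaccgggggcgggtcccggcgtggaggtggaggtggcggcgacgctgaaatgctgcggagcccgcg
Spred2, chr11:19924192-19924441, + strand: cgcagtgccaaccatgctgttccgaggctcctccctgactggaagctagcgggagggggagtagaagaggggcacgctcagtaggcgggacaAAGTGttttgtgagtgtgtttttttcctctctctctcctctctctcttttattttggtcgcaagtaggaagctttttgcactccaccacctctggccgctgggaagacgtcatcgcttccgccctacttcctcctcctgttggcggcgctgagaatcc
Etv5, chr16:22439571-22439820, - strand: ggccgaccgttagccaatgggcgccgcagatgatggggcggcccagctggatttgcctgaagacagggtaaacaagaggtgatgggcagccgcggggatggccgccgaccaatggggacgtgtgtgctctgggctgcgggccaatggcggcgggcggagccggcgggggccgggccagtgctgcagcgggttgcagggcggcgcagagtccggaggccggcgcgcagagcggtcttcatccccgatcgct
The core occurred once in the Spred2 window, 158 bases before the start, and not in the other two. Of all 32851 promoter windows of this length, 40.7% held AAGTG on either strand and 10.1% the longer TNAAGTG, which contains it. No TNAAGTG was present in any of the 9 windows listed for the 7 matched genes (Spry1, Spry2, Spred1, Spred2, Dusp6, Etv1 and Etv5), and 3 of the 9 held AAGTG. The Ets core CCGGAAG, searched in the same way, was in 0 of the 9 and in 6.91% of all windows. Their GC content ran from 44.4% at the second Etv1 start to 71.2% at the Etv5 window shown, against a median of 52.4% over all windows. Spry4, Dusp4 and Etv4 had no entry.

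Calls at the regions of the feedback genes were split evenly between the states, whereas the table as a whole holds far more OL calls. Counted by gene this contrast was not seen. An OPC call was present at 6 of the 10 (57.3% of all genes with a region) and an OL call at 9 (94.8%), both near those shares. OPC calls were present at 17 of the 29 regions (38.6% of all regions) and OL calls at 18 (85.3%). Regions called in OPC only numbered 11 (14.7% of all regions), those called in OL only 12 (61.4%) and those called in both 6 (23.8%). Calls at or above the median signal of their library were fewer, with OPC calls at 5 of the 29 regions (19.3%) and OL calls at 6 (42.6%). Under that limit OPC calls were no longer above the share of all regions. The 11 regions called in OPC only came from 5 genes, with 4 at Etv1, 3 at Spred2, 2 at Spry4 and 1 each at Spry2 and Etv5, and regions of 1 gene are not independent. By average signal, 13 of the 29 regions had less in OL than in OPC (22.5% of all regions). The median log2 ratio was 0.08 over the 29 regions and 0.74 over all regions. A ratio of 1 or more was reached at 3 regions (37.5% of all regions), all of them at Etv genes, and one of -1 or less at 3 (7.03%), both Spry4 regions and 1 of Etv1.

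**Figure D1:**
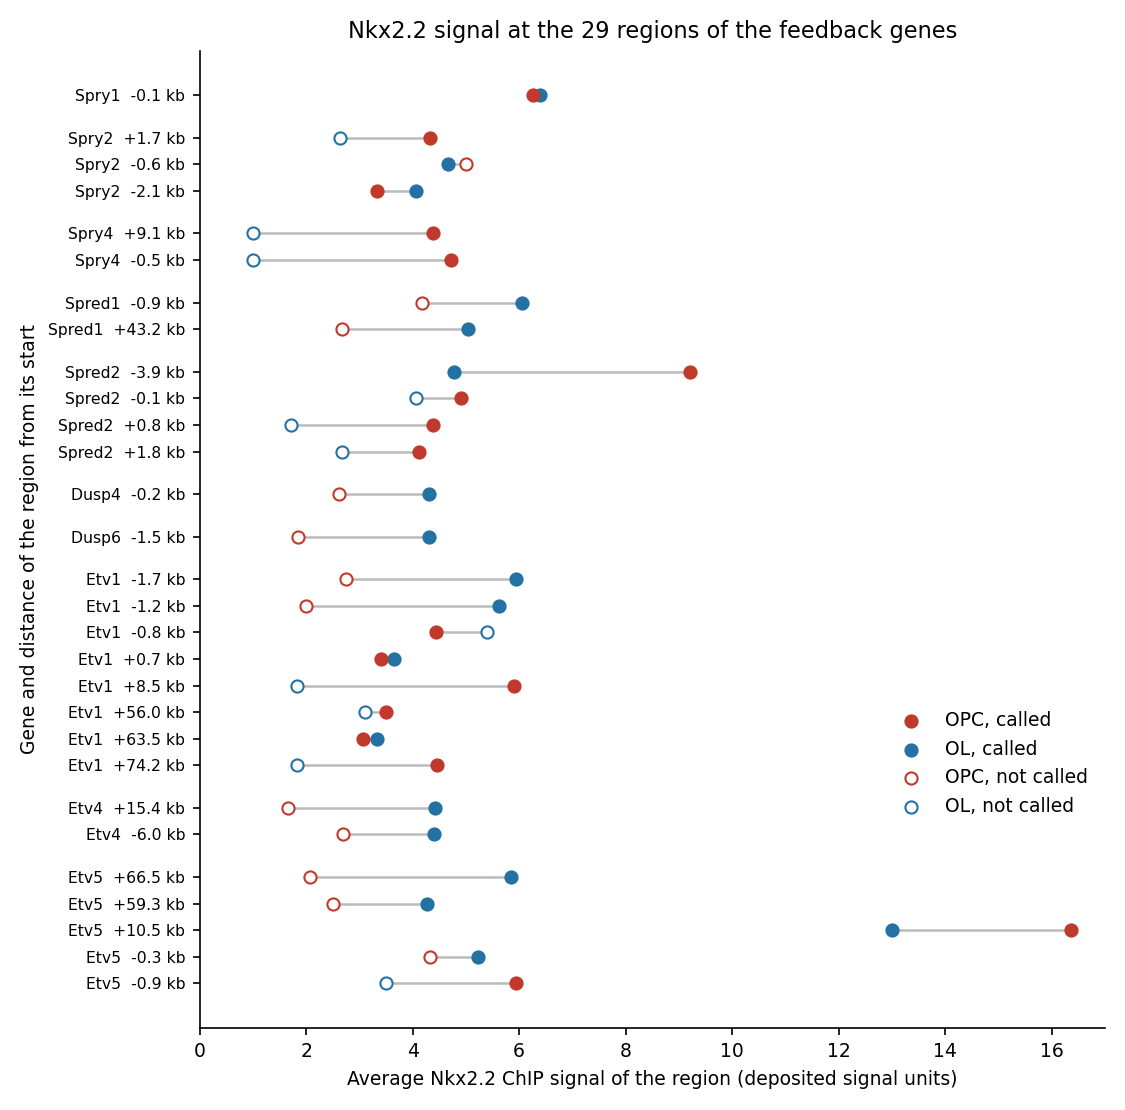
Average Nkx2.2 signal (horizontal axis, deposited signal units) of each of the 29 regions, in OPC (red) and OL (blue), by gene and distance of the region's middle from the gene start. Filled points are libraries in which the authors called the region. The Etv5 region 10523 bp into the gene stands apart at 16.4 and 13.0, and both Spry4 regions lie at 1 in OL.

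Most of these regions were weak by the higher of their 2 average signals, though their median OPC signal lay above that of all regions. The higher of the 2 average signals was at or below the median of all regions, 5.47, at 20 of the 29. Of the 20 weaker regions 9 were called in OPC only, against 19.5% of all regions in that range, and of the 9 stronger ones 2, against 9.98%. In OL the median signal of the 29 regions was 4.30 against 5.00 over all regions, and in OPC it was 4.17 against 3.00. At 2 of the 23 regions called in a single library the average signal was higher in the other library, namely Spry2 at 626 bp upstream and Etv1 at 759 bp upstream. Over all regions with a single call this was seen at 1.10%. The highest signal at both was greater in the library with the call, at 7 in OPC and 9 in OL for Spry2 and 9 and 8 for Etv1.

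The regions clustered around gene starts and CpG islands. A region within 1 kb of the start was present at 8 of the 10 genes, all but Dusp6 and Etv4, against 48.9% of all genes with a region. Within 2 kb the count was 9, with Dusp6 added, against 54.1%. A region covering the start was present at 5 genes, against 39.7%, which is closer to the share of all genes. CpG islands were assigned to 17 of the 29 regions and to 18% of all regions. Among the 11 feedback gene regions within 1 kb of a start, 5 were called in OPC only, while this class made up 7.08% of all regions within 1 kb of a start. OL calls were present at 6 of the 11, against 92.9%. The 17 CpG island regions include 10 of these 11, so they are largely the same regions. Among the 17, 7 were called in OPC only, 3 of them at Spred2, against 6.54% of all regions with an island.

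**Figure D2:**
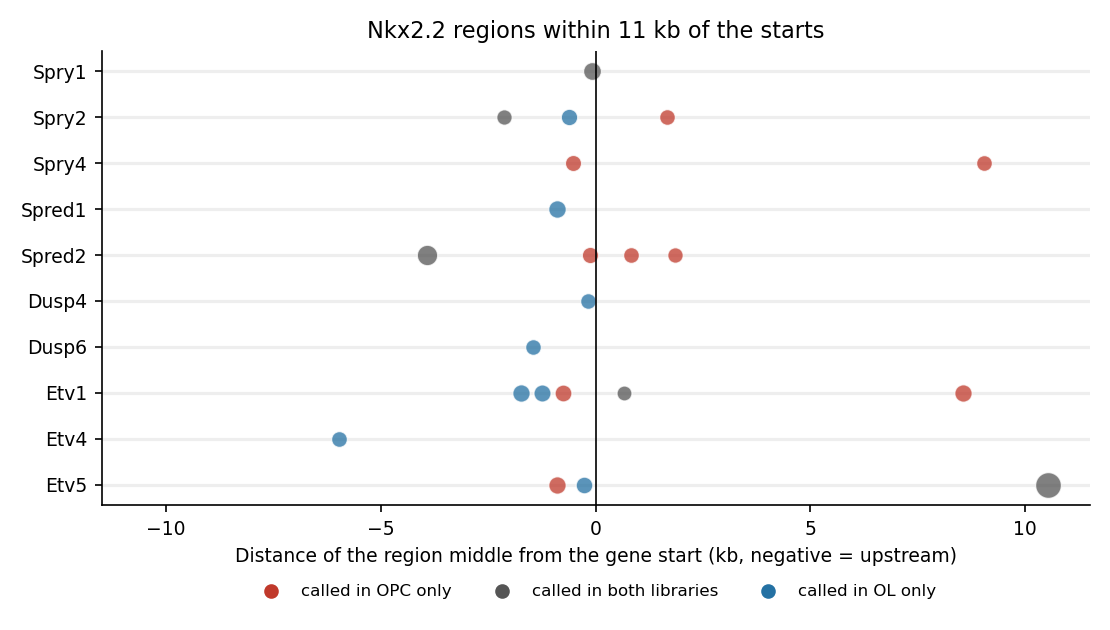
Middles of the regions within 11 kb of each gene start (horizontal axis, kb, negative upstream), coloured by the library in which they were called, with larger points for a higher signal. Spred2 has 3 regions called in OPC only at and just after its start, and Etv1 has a row of 4 regions across its start with calls of all 3 kinds.

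On the deposited scale the Sprouty genes ranged from nearly equal signal in both states to an OPC-only pattern. Spry1 had a single region on its start, chr3:37538462-37539169, called in both libraries, with 6.26 in OPC and 6.39 in OL and a log2 ratio of 0.02. The highest signal within it was 18 in OPC and 14 in OL, so its direction depends on which deposited signal is read. The average signals lay at the 88.2 percentile of all regions in OPC and the 70.2 percentile in OL. With the median of all regions set to 0 the Spry1 log2 ratio became -0.71. With the median of regions called in both libraries set to 0 it became -0.22. All 6 Sprouty regions were lower in OL under either rescaling (50.0% and 29.2% of all regions).

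Spry2 had 3 CpG island regions within 4314 bp and a different call at each. The one 1670 bp into the gene, chr14:106294140-106294592, had 4.33 in OPC and 2.64 in OL and was called in OPC only. At 626 bp upstream of the start the values were 5.00 and 4.67, with a call in OL only. The OPC average was slightly higher there, while the highest signal was 7 in OPC and 9 in OL. At 2130 bp upstream the averages were 3.33 and 4.06, called in both. Averaged over the 3 regions the log2 ratio was -0.14.

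Spry4 was the only one of the 10 without an OL call. The region over its start, chr18:38760823-38762078, had 4.72 in OPC and 1.00 in OL, and the region 9050 bp into the gene, chr18:38751672-38752073, had 4.38 and 1.00. Their log2 ratios were -1.52 and -1.43, and the highest signal in OL was 1 at both, against 11 and 6 in OPC. Among genes with 2 or more regions, 0.998% had no OL call, and among all genes with a region 5.24%. Both regions were also assigned to 9630014M24Rik, whose deposited start lies nearer to the middle of the first, at 262 bp, than that of Spry4 at 528 bp. A further 2 regions lay within 100 kb of the region at the start and were not assigned to Spry4. These were also called in OPC only, at 6.53 in OPC and 2.50 in OL in a region assigned to 9630014M24Rik, and at 4.75 and 2.31 with no assigned gene. All 4 regions at this locus had more signal in OPC, a pattern singled out after the values were seen. The same search around all 10 genes found 27 regions not assigned to the gene in question. Of these 9 were called in OPC only (14.7% of all regions), 13 in OL only (61.4%) and 5 in both (23.8%).

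The Spred genes encode inhibitors of Ras signalling at the membrane, and on the deposited scale Spred1 had more average signal in OL and Spred2 more in OPC. Spred1 had no OPC call and more OL signal at both of its regions. The one 889 bp upstream of its start, chr2:116945511-116947084, was the longest of the 29 at 1573 bp and overlapped 2 CpG islands, with 4.17 in OPC and 6.06 in OL. Its highest signal was 10 in both libraries, and its log2 ratio of 0.45 turned to -0.29 when the median of all regions was set to 0. Inside the gene, 43168 bp from the start, the values were 2.67 and 5.04, and the log2 ratio of 0.72 became -0.017 under the same rescaling, which puts both Spred1 regions on the side of Spred2.

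Spred2 had 4 regions within 6452 bp, all on CpG islands, all called in OPC and all with more average signal there. The strongest lay 3921 bp upstream of the start, chr11:19820137-19820912, with 9.20 in OPC and 4.78 in OL, ranking at the 95.7 percentile of all regions in OPC and the 43.7 percentile in OL. Its highest signal was 24 and 8. It was the only one of the 4 called in OL as well. The region over the start had 4.90 and 4.06 and equal highest signals of 8. At 826 bp and 1845 bp into the gene the averages were 4.38 and 1.71, and 4.11 and 2.67. Log2 ratios ran from -0.99 to -0.22. Among genes with 4 or more regions, 0.378% had less average OL signal at every one. This pattern was singled out after the values were seen, and the 4 Spred2 regions lie close together. All 4 were also assigned to LOC100041937, whose deposited start lies 1270 bp from the middle of the strongest region and is nearer to it than that of Spred2.

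Dusp4, a nuclear MAP kinase phosphatase, and Dusp6, a cytoplasmic phosphatase for ERK, each had 1 weak region near the start, on a CpG island and called in OL only. At Dusp4, chr8:35870295-35870697 had 2.62 in OPC and 4.31 in OL and covers the start. Dusp6 had 1.85 and 4.30 at chr10:98724076-98724725, with its middle 1465 bp upstream. The log2 ratios of 0.55 and 0.90 lay on either side of the 0.74 of all regions, and that of Dusp4 became -0.18 with the median of all regions set to 0. The OL signals lay at the 32.7 and 32.6 percentiles of all regions. Around Dusp6, 6 further regions lay within 100 kb without being assigned to it. The strongest in OL of these, chr10:98686891-98687483 with no assigned gene, had 3.92 in OPC and 8.56 in OL, and chr10:98746412-98747051, assigned to LOC100042222, was listed at 0 in OPC and had 8.16 in OL. In Wdr51b, 2 others were called in OPC only, with 3.85 and 1.00, and 5.53 and 2.27.

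Etv1 had the most regions, 8, and by average signal its start and gene body differed. Upstream of the start, the 2 outer regions were called in OL only, the one at 1727 bp (chr12:39504921-39505420) holding 2.75 in OPC against 5.94 in OL and that at 1243 bp 2.00 against 5.62. The next one, at 759 bp upstream, was called in OPC only with 4.44 and 5.40, and its highest signal was 9 in OPC and 8 in OL. A region 653 bp into the gene had 3.40 and 3.65, highest signals of 10 and 6, and calls in both libraries. By highest signal both of these regions thus had more in OPC. These 4 regions, with gaps of 91, 57 and 664 bp between them, thus held calls of all 3 kinds. Deeper in the gene, 3 of 4 regions were called in OPC only. The clearest lay 8543 bp from the start, chr12:39515077-39515804, with 5.91 in OPC and 1.82 in OL and a log2 ratio of -1.29. At 74228 bp the values were 4.46 and 1.82, at 56024 bp 3.50 and 3.11, and at 63550 bp, called in both, 3.07 and 3.33. Over all 8 regions the mean log2 ratio was 0.01, with a range of -1.29 to 1.14.

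Etv4 had 2 weak regions, both called in OL only and neither near its start. The region 15357 bp into the gene, chr11:101631002-101631532, had 1.67 in OPC and 4.41 in OL, and one 5975 bp upstream had 2.70 and 4.40. The first was also assigned to Dhx8, and the second turned to -0.19 with the median of all regions set to 0. Their log2 ratios of 1.02 and 0.55 make Etv4 the only one of the 10 genes to reach 1 at its highest region, against 34.7% of all genes, while only Spry4 reached -1, against 4.19%.

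Etv5 held the strongest region of the 29. It lay 10523 bp into the gene, chr16:22428712-22429529, and was called in both libraries with 16.4 in OPC and 13.0 in OL, ranking at the 99.1 and 95.7 percentiles of all regions. The highest signal in it was 53 and 43, and the log2 ratio of -0.31 is small beside the range over the other members. At the start 2 regions only 26 bp apart had opposite calls. The one covering the start, chr16:22439568-22440273, had 4.33 and 5.23 with a call in OL only, though its highest signal was 9 in both libraries. The one 910 bp upstream had 5.93 and 3.50, highest signals of 13 and 4, and a call in OPC only. Downstream of the gene, 59337 and 66486 bp from the start, the values were 2.50 and 4.27, and 2.08 and 5.85, both called in OL only. The neighbouring gene Dgkg held a region of similar strength, chr16:22508807-22509726, with 19.6 in OPC and 18 in OL.

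**Figure D3:**
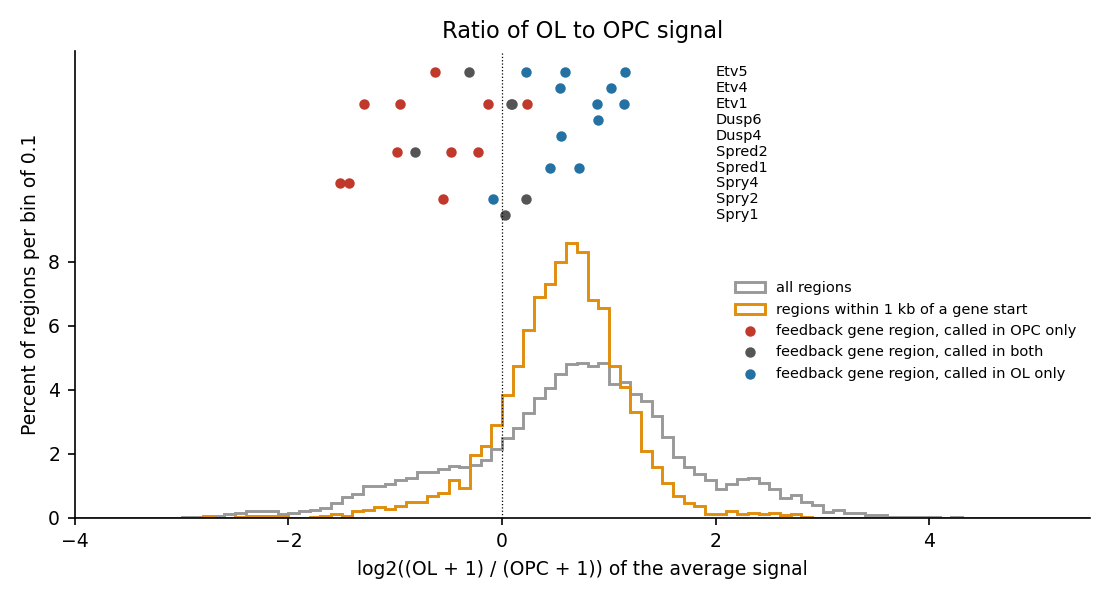
Log2 ratio of OL to OPC average signal (horizontal axis) for all regions and for regions within 1 kb of a gene start, as the percent of regions in each bin of 0.1. Above them each point is 1 region of a feedback gene, in a row per gene and coloured by its call, and Spry4 and Spred2 lie wholly below 0.

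Taken gene by gene, the mean log2 ratio over a gene's regions was below 0 for 3 of the 10, Spry2, Spry4 and Spred2 (13.8% of all genes). At the highest region of each gene it was below 0 for 4, with Etv5 in addition (16.9%). The median over the highest regions was 0.24 against 0.73 over all 14473 genes. By highest signal in place of the average, both Spry4 regions and 3 of the 4 Spred2 regions had more in OPC, and the one over the Spred2 start was equal. Another pseudocount cannot change a sign, and either rescaling lowers every ratio. Neither could therefore turn the negative signs of Spry4 and Spred2, and a rescaling that raises the ratios was not tried. How the libraries are scaled decides the sign of many of the regions. With the median of the regions called in both libraries set to 0, a shift of 0.24, 19 of the 29 regions were lower in OL (29.2% of all regions), and with the median of all regions set to 0, a shift of 0.74, it was 24 (50.0%).

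Genes elsewhere in the pathway were described from 3 lists. Of 10 close relatives 8 had a region, all but Spry3 and Dusp2, with 15 regions in all. The median log2 ratio of their highest regions was 0.61, with 3 genes reaching 1 (34.7% of all genes) and none as low as -1 (4.19%). Of the 15 regions 4 were called in OPC only (14.7% of all regions) and 11 had an OL call (85.3%). The lowest ratios were those of Dusp1, an inducible nuclear phosphatase, with 14.3 in OPC and 8.75 in OL, Dusp10 with 6.12 and 6.02, and Spred3 with 3.65 and 4.24. The highest were those of Dusp8 (1.25 and 6.82), Dusp9 (1.43 and 5.48) and Dusp5 (2.86 and 6.88). Of the 2 Dusp8 regions 1 was called in OPC only, and their mean log2 ratio was 0.43. Dusp1, like Spred2 and Etv5, thus had a strong region with more signal in OPC.

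Of 24 other feedback and target genes 22 had a region, all but Egr1 and Rasa1. At the highest region of each gene the median log2 ratio was 0.54, with 6 genes reaching 1 (34.7% of all genes) and 1 gene below -1 (4.19%). The latter was Ccnd1, the gene of cyclin D1, whose region 64 bp upstream of its start had 4.95 in OPC and 1.57 in OL and was called in OPC only. Lrig1, a membrane inhibitor of growth factor receptors, had 9.05 and 5.54 at its strongest region, while an OL call was present at each of 5 regions and their mean log2 ratio was 0.37. Egr3, an immediate early transcription factor gene, had 4.52 and 2.77 at its only region. At the other end was Il17rd, a membrane inhibitor of FGF signalling, with 1.00 in OPC and 5.88 in OL. Next came Fosl1, an AP-1 subunit gene, with 1.46 and 6.85, and Socs3, a cytokine feedback inhibitor, with 2.14 and 8.77. Mean log2 ratios over all regions of Il17rd, Fosl1 and Socs3 were 1.08, 1.33 and 0.71. Over the 64 regions of this list, 8 were called in OPC only (12.5%, against 14.7% of all regions). An OL call was present at 56 (87.5%, against 85.3%), and both shares were near those of the whole table.

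The cascade from receptor to ERK had more OL signal at the highest region of most genes, as the whole table does. Less OL signal there was seen at 3 genes, against 16.9% of all genes. Of 24 genes 22 had a region, all but Fgfr3 and Nras, with a median log2 ratio of 1.14 at the highest regions, 11 genes reaching 1 there (34.7% of all genes) and none as low as -1 (4.19%). With the mean over all regions of a gene the median was 0.77, nearer the 0.67 of all genes. Over the 78 regions taken singly it was 0.58, below the 0.74 of all regions, with 24 regions at 1 or more (37.5%) and 4 at -1 or less (7.03%), the lowest at -2.43. Braf, a Raf kinase gene, had 25.9 in OL against 2.00 in OPC at its single region, Sos2, which encodes a Ras activator, 1.00 and 6.41, and Map2k1, the gene of the ERK kinase MEK1, 3.75 and 15.6. The lowest at the highest region were Fgfr2 (7.20 and 3.89), Ptpn11, a phosphatase gene of receptor signalling (6.75 and 3.80), and Rps6ka1, the gene of a kinase activated by ERK (4.26 and 3.65). The mean over all regions was 0.65 for Fgfr2 and 0.62 for Ptpn11, so their direction turned. By that mean the lowest were Rps6ka1 at -0.18, Sos1 at -0.10 and Pdgfra at -0.03. At their highest regions Sos1 and Pdgfra had more OL signal, with log2 ratios of 0.42 and 1.44. The Pdgfra values there were 8.30 in OPC and 24.3 in OL. Of the 78 regions of this list 9 were called in OPC only and 69 had an OL call. These shares lie closer to those of all regions than the 11 and 18 of 29 at the feedback genes. No test of this difference was possible.

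**Figure D4:**
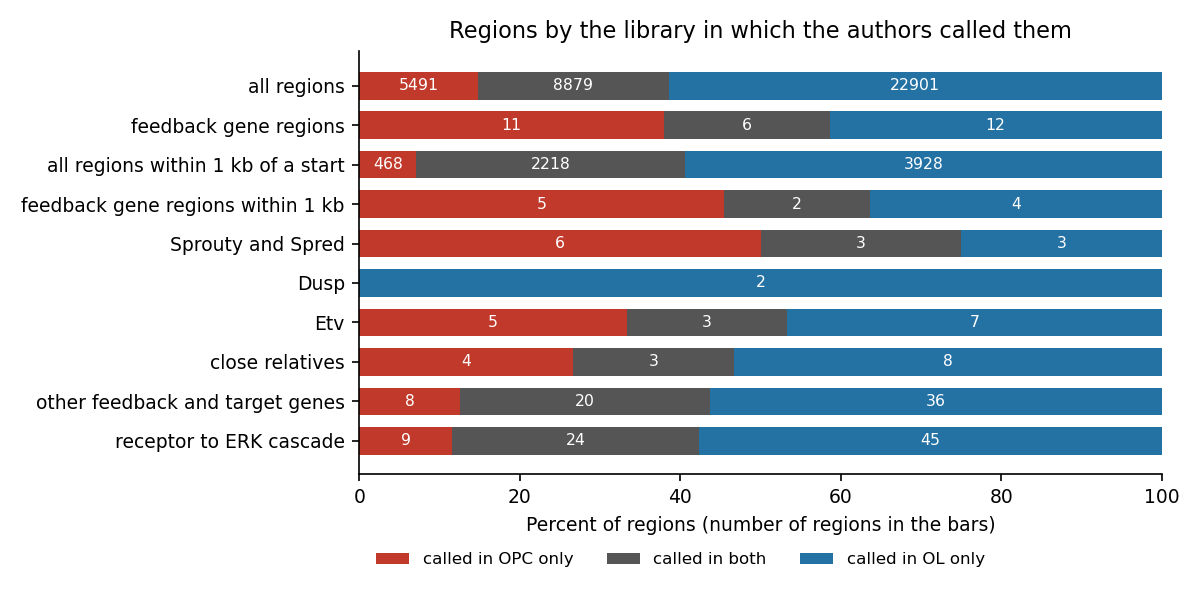
Percent of regions (horizontal axis) called in OPC only, in both libraries or in OL only, with the number of regions in each bar, for all regions, the feedback genes and their families, and the 3 pathway lists. Sprouty and Spred regions have 6 of 12 called in OPC only (14.7% of all regions), all of them at Spry2, Spry4 and Spred2. The 2 Dusp regions are both called in OL only (61.4% of all regions).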

How the data were processed

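Nkx2.2 ChIP-seq was measured in 1 OPC and 1 OL library. The submitters' processing notes list BWA, MACS 1.4.2 and build mm9. Per the file headers, the authors merged the called intervals of both libraries into regions and deposited for each region the average and highest signal, a call mark for each library, assigned genes, and the distance and position relative to their starts. The calling threshold, the role of the input and any scaling were not given in the sources used here. Regions were taken where the gene list holds a member, and every region of the 10 genes is described. A gene's highest region is the one with the highest average signal in either library. In the 3 pathway lists the 3 highest and 3 lowest ratios were named. Members and lists were chosen with earlier results of these data known. Percentiles are ranks among all 37271 regions. Alternatives were other pseudocounts, the highest signal, rescalings, a signal filter, stricter calls and other promoter distances. Region sequences were not used, as no mm9 genome was given. Scripts used Python 3.11.15 and pandas 2.3.3 and were tested on simulated data.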

Additional observations from a re-analysis of the deposited data

How the results depend on the processing

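With 1 library per state nothing here has a replicate check, and no paired analysis was possible because there are no replicates. Counts of regions at a log2 ratio of 1 or more, 3 as reported, were 0 with a pseudocount of 2 (27.4% of all regions, against 37.5% as reported), 0 with either rescaling (27.2% and 13.2%), and 5 with the highest signal (52.2%). Regions at -1 or less, also 3 (7.03%), numbered 5 with a pseudocount of 0.5 (8.29%), 9 with the highest signal (10.8%), 6 with the median of shared regions set to 0 (10.1%), 10 with the median of all regions set to 0 (17.5%), and 1 among the 9 regions above the median signal (7.33%). Regions below 0, reported as 13, were 24 with the median of all regions set to 0 (50% of all regions) and 4 among those 9 (21.1%). The median log2 ratio of 0.08 became 0.091 and 0.066 with pseudocounts of 0.5 and 2, 0 with the highest signal (1 over all regions), -0.16 and -0.66 after the rescalings, and 0.025 among the stronger regions.

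Keeping only calls at or above the median signal of their library left 5 OPC calls (19.3% of all regions), 6 OL calls (42.6%) and 2 regions called in both (10.2%). With OL calls limited to as many of the strongest as there are OPC calls, 2 were shared (15.2%). Regions called in OPC only, 11 in all, were 9 among weaker and 2 among stronger regions, a split chosen after seeing the data. A region covering the start was found at 5 genes (39.7% of all genes with a region), against 8 within 1 kb (48.9%). Where a member had to be the nearest gene, 27 of the 29 regions remained. With the mean over all regions of a gene the list medians were 0.32 for close relatives, 0.64 for other feedback genes and 0.77 for the cascade. Depth is unknown, so it cannot be said what a missing call at these regions means.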
